A study of Mus musculus with 4 samples.

Results

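Gene-packed TADs are taken here as the autosomal topologically associating domains of at most 2000 kb in which 15 or more protein-coding genes have their start in the GENCODE M21 annotation of GRCm38, the build that mm10 names. They were chosen by the called TADs and by the annotation, so their number, size and gene content describe the choice and carry no test. By this rule 78 TADs were selected among the 3997 autosomal TADs of at most 2000 kb of the 2D-cultured cells, which is 1.95%. In the 3D-cultured cells 111 of 3861 such TADs were selected, which is 2.87%. Together these are 189 of the 8822 TADs of both lists.

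The TADs came from in situ Hi-C of AML12 cells, a single line of mouse hepatocytes that was derived from an animal transgenic for human TGF-alpha. The 2D cultures grew in dishes and the 3D cultures were embedded in Matrigel, a gel of extracellular matrix. To stop the cells at the step from G1 to S phase, both cultures were given 1 mM hydroxyurea, which blocks DNA synthesis. It acted for 24 h on the 2D-cultured cells but for 36 h on the 3D-cultured cells, so the effect of the culture and that of the longer exposure cannot be told apart. There were 2 samples per culture, 4 in all. The authors combined the replicates before calling TADs, so each culture has a single list, the spread between replicates is unknown and no test between the cultures was made. Hepatocyte markers were not checked here, because only TAD positions were used. How many contacts stand behind a TAD is unknown. The 95% Wilson intervals given for shares cover counting error only.

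In a TAD, DNA sequences contact each other more often than they contact sequences across its borders, and in mammals the protein CTCF, together with cohesin, is often bound at those borders. Genes that arose by tandem duplication, such as the olfactory receptors, stay side by side as clusters, and most members of such clusters are silent outside the tissue that uses them. Genes of unlike kinds also crowd together in gene-dense stretches of the genome. A gene-packed TAD was called family-filled here when at least 50% of its gene starts carried the symbols of 1 of 45 clustered gene families, and mixed otherwise. In 2D, 33 of the 78 gene-packed TADs were family-filled and 45 were mixed. In 3D, 35 of the 111 were family-filled and 76 were mixed. The list lacked some tandem families, and 2 of them that filled a TAD were noticed after the TADs were seen. Trace amine-associated receptors made up 15 of the 18 starts of chr10:23800001-24160000, and S100a genes, which encode calcium-binding proteins, 12 of the 15 of chr3:90480001-90720000. Both TADs had the same ends in both lists. They are counted as mixed here, and their genes as genes of no clustered family. Families were counted by symbol alone, so other mixed TADs can hold tandem genes that were missed. At chr10:77720001-77920000 in 2D, 3 of 19 starts were counted as keratin-associated proteins and most others had Gm symbols. At chr10:127680001-128040000 several of the 15 starts were Rdh genes, a family not listed. Keratins and keratin-associated proteins counted as separate families. How far this shifts the classes was not tested.

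The genes in these TADs differ in the CpG dinucleotides of their promoters, which are printed in capitals in the following 5 promoters. The difference runs between families rather than between the classes of TAD alone. Each runs from 250 bases before to 50 bases after the annotated start, 5′ to 3′ on the strand of the gene, in the RefSeq copy of GRCm38. Each was taken as the promoter whose ratio of observed to expected CpG was nearest to the median of its family, or of the genes of no clustered family, in that TAD. Olfr64, an olfactory receptor gene (chr7:103894436-103894735, minus strand), lies in the TAD with the most gene starts of both lists, which is family-filled. Krt34, a hair keratin gene (chr11:100041505-100041804, minus strand), lies in the TAD with the most keratin genes, which is mixed. Hist1h3i, a gene for histone H3 (chr13:21783321-21783620, minus strand), lies in a family-filled TAD of 3D. Sox15, a transcription factor gene (chr11:69655064-69655363, plus strand), lies in the mixed TAD with the most starts among those without any gene of a clustered family in 2D. Cdc42ep2, whose product binds the small GTPase Cdc42 (chr19:5924767-5925066, minus strand), lies in a mixed TAD of 3D that overlaps no TAD of 2D.
Olfr64: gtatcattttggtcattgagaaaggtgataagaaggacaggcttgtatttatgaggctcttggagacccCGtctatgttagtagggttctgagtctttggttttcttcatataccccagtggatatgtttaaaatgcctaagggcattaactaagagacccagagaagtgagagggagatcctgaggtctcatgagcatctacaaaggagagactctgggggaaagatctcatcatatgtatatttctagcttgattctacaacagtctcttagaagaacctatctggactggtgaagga
Krt34: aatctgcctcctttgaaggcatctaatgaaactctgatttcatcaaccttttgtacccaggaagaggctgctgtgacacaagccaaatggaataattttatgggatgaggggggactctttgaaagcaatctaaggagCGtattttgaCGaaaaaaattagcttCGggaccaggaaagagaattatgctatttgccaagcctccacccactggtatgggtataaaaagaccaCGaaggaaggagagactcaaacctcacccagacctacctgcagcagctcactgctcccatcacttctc
Hist1h3i: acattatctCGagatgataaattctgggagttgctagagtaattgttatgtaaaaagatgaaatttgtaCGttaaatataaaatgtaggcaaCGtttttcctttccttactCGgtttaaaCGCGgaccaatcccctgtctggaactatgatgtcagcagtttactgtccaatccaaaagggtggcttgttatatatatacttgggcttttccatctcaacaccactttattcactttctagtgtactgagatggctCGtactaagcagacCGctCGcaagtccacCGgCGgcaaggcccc
Sox15: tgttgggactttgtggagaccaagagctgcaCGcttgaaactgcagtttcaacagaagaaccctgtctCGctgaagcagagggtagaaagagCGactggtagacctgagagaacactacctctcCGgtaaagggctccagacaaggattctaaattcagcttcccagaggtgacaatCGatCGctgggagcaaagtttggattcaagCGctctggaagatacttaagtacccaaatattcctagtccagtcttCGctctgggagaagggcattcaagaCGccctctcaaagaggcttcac
Cdc42ep2: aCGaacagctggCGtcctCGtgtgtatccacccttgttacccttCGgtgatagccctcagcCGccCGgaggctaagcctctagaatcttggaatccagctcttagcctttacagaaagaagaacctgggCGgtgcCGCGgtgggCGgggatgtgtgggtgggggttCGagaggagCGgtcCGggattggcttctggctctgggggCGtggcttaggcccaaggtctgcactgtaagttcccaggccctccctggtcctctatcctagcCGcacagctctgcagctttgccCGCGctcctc

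The olfactory receptor promoter holds 1 CpG, the keratin promoter 4, the histone promoter 11, the Sox15 promoter 9 and the Cdc42ep2 promoter 17. Their ratios of observed to expected CpG are 0.0795, 0.26, 0.846, 0.488 and 0.596. Over all 968 gene starts in family-filled TADs of 2D the median ratio was 0.114 (quartiles 0.0491 and 0.254), and 9.40% of promoters reached a ratio of 0.6. Over the 944 starts in mixed TADs of 2D the median was 0.321 and 31.2% reached 0.6. In 3D the medians were 0.120 for 1012 starts in family-filled TADs and 0.461 for 1505 starts in mixed TADs, of which 10.2% and 38.9% reached 0.6. Genes in the remaining autosomal TADs of at most 2000 kb had medians of 0.608 in 2D and 0.623 in 3D. Mixed TADs, like family-filled ones, thus had promoters poorer in CpG than those of the remaining TADs, in both lists. Genes of no clustered family in mixed TADs had medians of 0.390 in 2D and 0.525 in 3D. Families differed from each other. Among gene-packed TADs of 3D, the median was 0.0853 for 484 olfactory receptors and 0.0774 for 102 vomeronasal receptors, but 0.821 for 32 histone genes, 0.545 for 84 zinc finger genes and 0.521 for 54 clustered protocadherins.

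At the borders, the 9-letter piece AGGGGGCGC of the CTCF consensus was searched on both strands in the bins of 40 kb that lie just inside each end of a TAD. It is shown in capitals, with the bases around it, for 4 TADs among those with identical ends in both lists. These 4 are examples and were not taken by rank. There were 35 TADs with identical ends, of which 10 held the piece in a border bin, 1 of them in both, and 25 held it in neither. The 10 held 14 matches in all, and the mixed TAD chr19:4000001-4320000, with 26 starts, is among those not shown. The stretches lie at chr7:140165063-140165122 (plus strand) and chr16:59421020-59421079 (plus strand), inside the borders of olfactory receptor TADs, at chr7:127111658-127111717 (plus strand), inside the border of a mixed TAD, and at chr11:98655258-98655317 and chr11:98673366-98673425 (minus strand), both inside 1 border of another mixed TAD, within the neighbouring genes Gsdma2 and Gsdma.
chr7 olfactory receptor TAD: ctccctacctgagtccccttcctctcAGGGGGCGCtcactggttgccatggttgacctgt
chr16 olfactory receptor TAD: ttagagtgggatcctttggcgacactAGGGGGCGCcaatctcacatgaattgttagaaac
chr7 mixed TAD: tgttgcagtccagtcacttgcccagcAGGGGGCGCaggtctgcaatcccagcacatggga
chr11 mixed TAD in Gsdma2: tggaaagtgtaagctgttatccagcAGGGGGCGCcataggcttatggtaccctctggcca
chr11 mixed TAD in Gsdma: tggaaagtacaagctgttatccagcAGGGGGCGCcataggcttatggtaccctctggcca

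The 2 stretches on chromosome 11 have the same base at 58 of 60 positions, so that 2 matches there stand for a duplicated sequence. A match to these letters is a description and not a site of binding. In 2D, 27 of 156 border bins of gene-packed TADs held the piece, which is 17.3% (interval 12.2 to 24.0%), against 100 of 1476 inner bins, which is 6.78%. In 3D it was in 49 of 222 border bins, 22.1% (17.1 to 28.0%), and in 154 of 1666 inner bins, 9.24% (7.95 to 10.7%). Border bins of the other autosomal TADs of at most 2000 kb held it in 14.4% of cases in 2D and in 14.2% in 3D, and 7.46% of all autosomal bins did. The difference between border and inner bins was wider in family-filled TADs, with 21.4% of border bins and 3.89% of inner bins in 3D, than in mixed TADs, with 22.4% and 13.6%. Border bins were also richer in G and C than inner bins, with 46.4% against 42.9% in gene-packed TADs of 3D, and the part of base composition in these shares was not tested.

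The shortest gene-packed TADs of both lists spanned 120 kb and the longest 2000 kb. Their median size was 720 kb in 2D, with a 95% interval by order statistics from 440 to 1080 kb, and 440 kb in 3D, with an interval from 360 to 560 kb. The remaining autosomal TADs of at most 2000 kb were shorter, at a median of 200 kb in 2D and of 240 kb in 3D. The family-filled TADs were long (median 1040 kb in 2D, 920 kb in 3D), whereas the mixed TADs of either list had a median of 360 kb. The 3D list had a lower median and a larger share of mixed TADs, but sizes also differed within the classes. The upper quartile of mixed TADs stood at 1200 kb for 2D but at 560 kb for 3D. How far the share of mixed TADs, or the sizes within the classes, lowered the 3D median was not tested. Among gene-packed TADs of at most 1000 kb, either list had a median of 360 kb. The gene-packed TADs held 1912 starts in 2D, 9.19% of the 20807 autosomal protein-coding genes, in 3.02% of the length of all autosomal TADs. In 3D they held 2517 starts, 12.1% of the genes, in 3.39% of the length. The median density was 3.90 starts per 100 kb in 2D and 4.44 in 3D, and single TADs ranged from 0.798 to 13.3 starts per 100 kb.

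**Figure D1:**
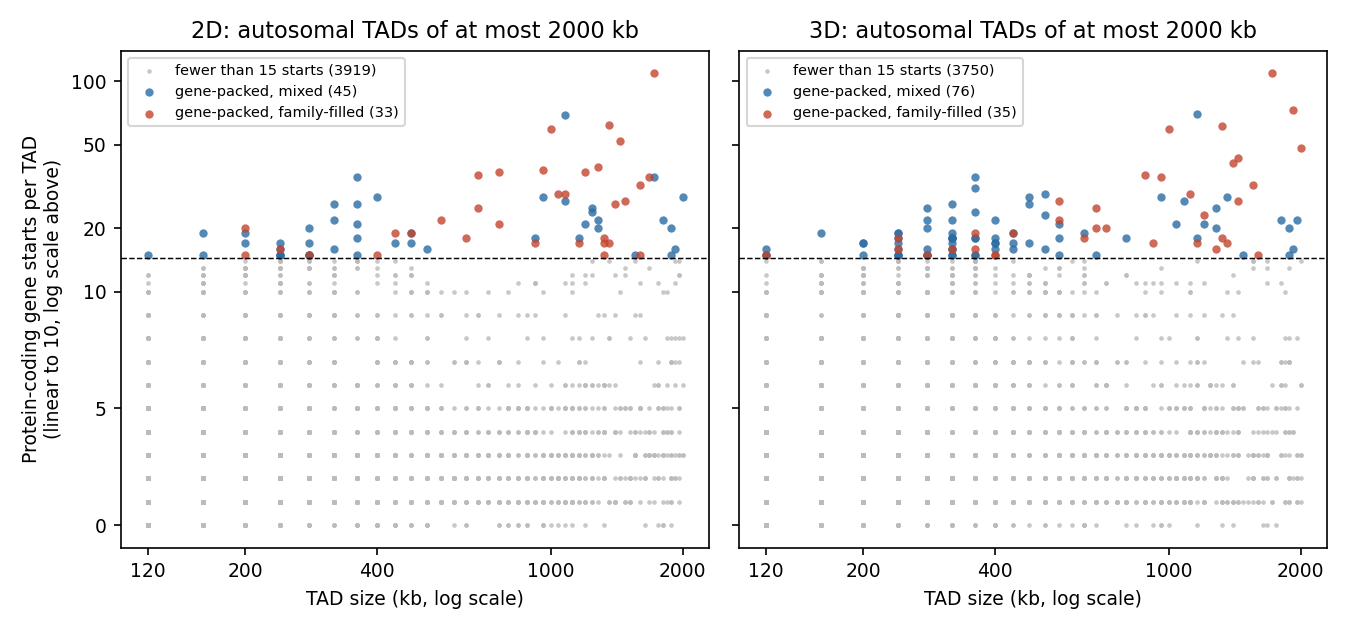
TAD size in kb (x axis, log scale) against protein-coding gene starts per TAD (y axis, linear to 10 and logarithmic above) for autosomal TADs of at most 2000 kb in 2D (left) and 3D (right); each point is 1 TAD and the dashed line marks the minimum of 15 starts. Family-filled TADs (33 in 2D, 35 in 3D) lie mostly at the long end, while mixed TADs (45 and 76) crowd between 120 and 560 kb, more so in 3D.

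Many gene-packed TADs stood close to the minimum. Exactly 15 starts were counted in 16 TADs of 2D and 22 of 3D, and exactly 14 starts, just outside the rule, in 17 and 23. Starts were counted per annotated gene, so a symbol annotated more than once counted each time. The TAD chr10:127120001-127360000 of 2D and its 3D counterpart reached 15 with Ddit3 counted 2 times. The 3D TAD chr1:92920001-93480000 did so with Sept2 counted 2 times. A further 22 autosomal TADs of 2D and 24 of 3D had 15 or more starts but were longer than 2000 kb, and 3 and 2 TADs on chromosome X had as many. The rule could turn on 1 bin. An olfactory receptor TAD of 3D at chr2:110240001-112240000 with 48 starts was exactly 2000 kb long, and its counterpart in 2D began 40 kb earlier, held the same 48 starts and was left out for its length. The surplus of the 3D list depended on the minimum. With 10 or more starts there were 225 TADs in 2D and 300 in 3D, and with 20 or more 38 and 43. At 24 or more starts both lists had 27, and at 25 or more 26. At 30 or more there were 14 in 2D and 13 in 3D. At 35 or more there were 13 and 11, and at 40 or more 5 and 8, so 3D was ahead again among the few fullest TADs.

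**Figure D2:**
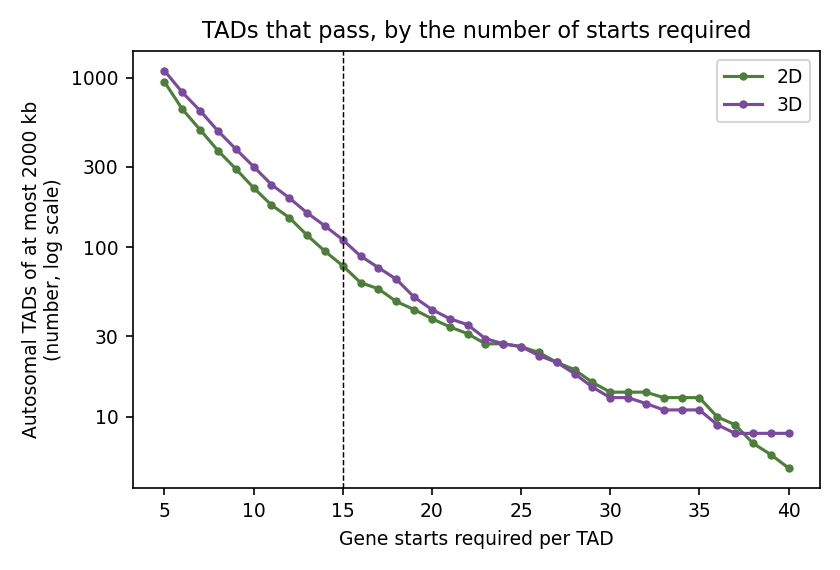
Number of autosomal TADs of at most 2000 kb (y axis, log scale) with at least the number of gene starts on the x axis, for 2D and 3D; the dashed line marks 15 starts. The 3D curve lies above the 2D curve at 15 starts (111 against 78) and both meet at 24 starts, with 27 TADs each.

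By chromosome, gene-packed TADs were more numerous in 3D on 14 of the 19 autosomes, equal on 4 and fewer on 1, chromosome 5, which had 3 in 2D and 2 in 3D. Chromosome 11 had the largest increase, from 8 to 14. In 2D the chromosome with most gene-packed TADs for its length was chromosome 7, with 8.25 per 100 Mb, and that with fewest was chromosome 4, with 0.639. In 3D they were chromosome 11, with 11.5 per 100 Mb, and chromosome 12, with 0.832, where the only one was the serpin TAD in both lists.

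Agreement was measured against the other list. A TAD was said to have a counterpart when a single TAD of the other list started and ended within 40 kb, or 1 bin, of its own start and end, and a border to be shared when the other list had any border within 40 kb. Of the 78 gene-packed TADs of 2D, 53 had a counterpart in 3D, 67.9% (57.0 to 77.3%), which lies beside the 66.7% of all autosomal TADs of at most 2000 kb. Of the 111 of 3D, 56 had a counterpart in 2D, 50.5% (41.3 to 59.6%), whereas 69.1% of all such TADs of 3D did. Borders gave another picture. In 2D, 133 of 152 distinct borders of gene-packed TADs were shared, 87.5% (81.3 to 91.8%), against 82.2% of all. In 3D, 195 of 214 were shared, 91.1% (86.6 to 94.2%), against 89.3% of all. Neither border was shared in 3 gene-packed TADs of 2D, 3.85% (1.32 to 10.7%), where the share over all such TADs was 5.28%. The same held for 4 of 3D, 3.60% (1.41 to 8.90%), against 2.23% over all. Among TADs of 120 to 400 kb, 24 of 55 gene-packed TADs of 3D had a counterpart, 43.6% (31.4 to 56.7%), against 70.5% of the others of that size. Among those of 440 to 1000 kb 12 of 27 did, 44.4% (27.6 to 62.7%), against 66.9%. Among those over 1000 kb 20 of 29 did, 69.0%, against 67.9%. The gene-packed TADs of 3D were thus bounded where 2D had borders as often as other TADs, but fewer of them matched a 2D TAD at both ends. This comparison is limited by the choice of the TADs in their own list, as described for the mixed TADs.

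A core of 51 gene-packed TADs was the same in both lists. Of these, 35 had identical ends, 14 differed by 1 bin at 1 end and 2 differed by 1 bin at both ends. The number of starts was the same in 40 of the 51, higher in 3D in 4 and lower in 7. Their median size was 640 kb in either list. Outside this core were 27 TADs of 2D, 16 of them mixed, with a median of 920 kb, and 60 of 3D, 48 of them mixed, with a median of 380 kb. By genes, 1671 of the 1912 genes in gene-packed TADs of 2D were in such a TAD in 3D too, 87.4% (85.8 to 88.8%). The same 1671 were 66.4% (64.5 to 68.2%) of the 2517 genes of 3D. Of the other genes of 3D, 516 lay in a 2D TAD with fewer than 15 starts, 48 in a 2D TAD over 2000 kb, and 282, or 11.2% (10.0 to 12.5%), in no 2D TAD. Over all autosomal genes, 22.7% lay in no TAD in 2D and 15.9% in 3D. These shares include genes outside TADs in both lists, whereas genes of 3D gene-packed TADs all lie in a 3D TAD. The 11.2% is therefore not comparable with the 22.7%.

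Among the TADs without a counterpart the mixed TADs of 3D were most numerous. The choice of TADs bears on this, because a TAD called as 1 in a list and as several in the other reaches 15 starts more easily in the list where it is whole, and its pieces may fall short of 15 in the other. Of the 76 mixed TADs of 3D, 31 had a counterpart, 40.8% (30.4 to 52.0%), while 25 of the 35 family-filled TADs did, 71.4% (54.9 to 83.7%). In 2D both classes were alike, with 31 of 45 mixed TADs, 68.9% (54.3 to 80.5%), and 22 of 33 family-filled TADs, 66.7% (49.6 to 80.2%). Without the TADs of trace amine-associated receptors and S100a genes the share was 39.2% of 74 mixed TADs of 3D and 67.4% of 43 of 2D. In 34 of the 76 mixed TADs of 3D, 44.7% (34.1 to 55.9%), both borders were shared but no 2D TAD had both ends within 40 kb of them. Over all autosomal TADs of 3D of at most 2000 kb this was so for 14.9%. Of these 34, 18 held 2 or more 2D TADs, 15 held 1 and 1 held none, and in 26 some of the length was in no 2D TAD. In 28 of the 34, no 2D TAD inside had 15 or more starts. The same arrangement was found in 4 of the 45 mixed TADs of 2D, 8.89% (3.51 to 20.7%), against 6.13% of all such TADs of 2D, and in 5 and 4 family-filled TADs of 3D and 2D.

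**Figure D3:**
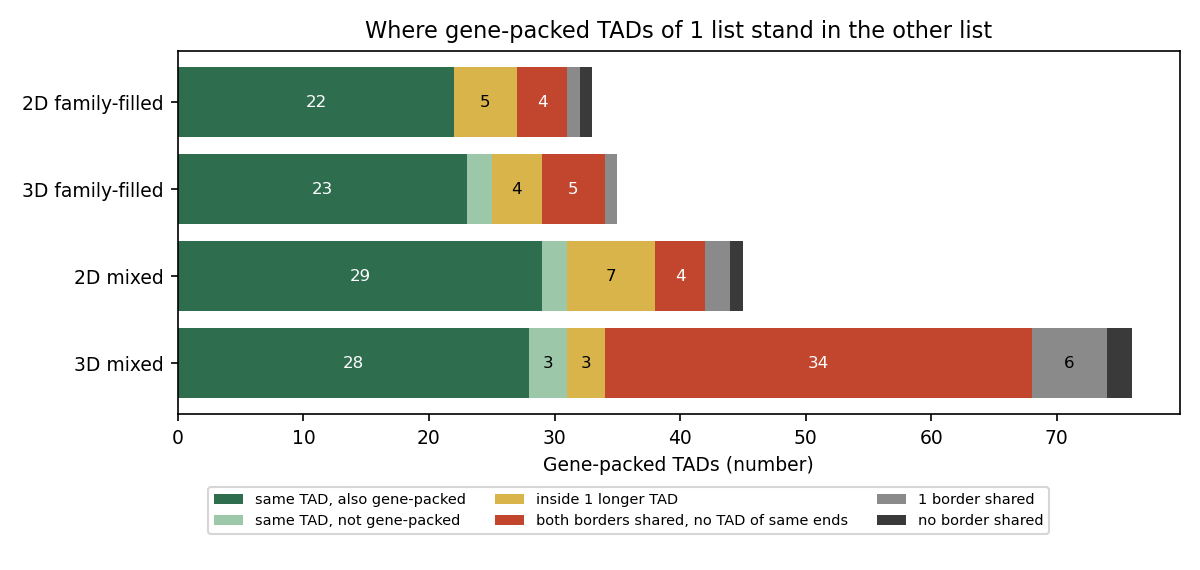
Number of gene-packed TADs (x axis) by class and culture (bars), split by how they stand in the other list; "same TAD" means both ends within 40 kb. Mixed TADs of 3D stand out by 34 TADs whose borders are both shared without a 2D TAD of the same ends, against 4 mixed TADs in 2D. A TAD that spans several TADs of the other list passes the rule more easily.

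The count of 2D borders inside 3D TADs describes the same TADs, chosen by the same rule, in another way and is no separate support. A 2D border more than 40 kb from both ends lay inside 38 of the 76 mixed TADs of 3D, 50.0% (39.0 to 61.0%), inside 5 of 35 family-filled TADs, 14.3% (6.26 to 29.4%), and inside 525 of the 3750 TADs of 3D with fewer than 15 starts. Over all TADs of 3D considered, the share was 14.7%. The difference was present among TADs of like size. Among those of 120 to 400 kb the share was 50.0% of 46 mixed TADs and 11.2% of 2789 TADs with fewer starts, and among those of 440 to 1000 kb it was 12 of 16 mixed TADs and 24.8% of 665. Above 1000 kb the shares lay close, at 21.4% of 14 and 16.6% of 296. In the reverse direction, a 3D border lay inside 15.6% (7.75 to 28.8%) of the mixed TADs of 2D and inside 4.64% (4.03 to 5.35%) of the 2D TADs with fewer starts, and inside 4.85% of all of them. The rule bears on these shares in both directions, since a TAD that spans several TADs of the other list reaches 15 starts more easily than any of its pieces. When borders were instead sorted by the gene starts within 200 kb on each side, a sorting that does not use the extent of TADs, 81.4% (74.9 to 86.6%) of 167 2D borders with 20 or more starts nearby were shared, and 80.5% (78.9 to 82.0%) of 2671 with 0 to 4. For 3D borders the shares were 83.4% (76.8 to 88.4%) and 88.6% (87.3 to 89.8%). By this measure, which was chosen after the shares inside TADs were seen, the interval of the densest class overlapped that of each sparser class in 2D. In 3D the densest class was below the class with 5 to 9 starts, which was shared in 90.2% (88.8 to 91.5%), and its interval overlapped those of the remaining classes.

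**Figure D4:**
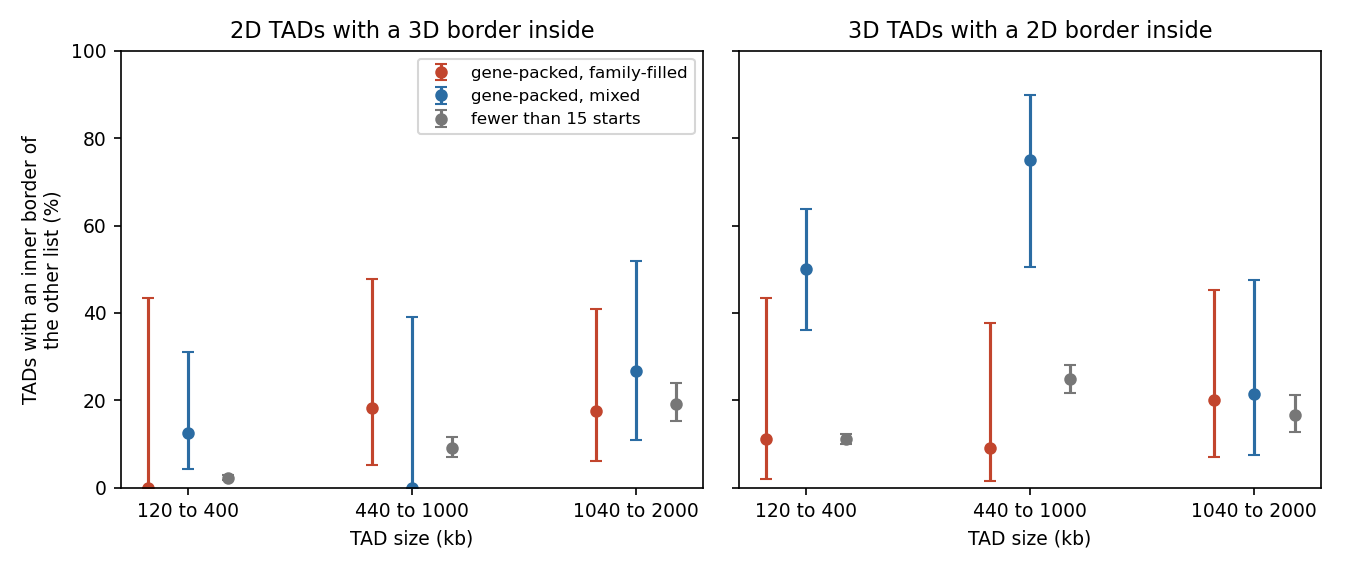
Share of TADs (y axis, %) that hold a border of the other list more than 40 kb from both ends, by TAD size in kb (x axis), for 2D TADs (left) and 3D TADs (right); points are shares and bars 95% Wilson intervals. Mixed gene-packed TADs of 3D reach 50.0% at 120 to 400 kb and 12 of 16 TADs at 440 to 1000 kb, above TADs with fewer starts (11.2% and 24.8%). A TAD that spans several TADs of the other list passes the rule more easily.

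Chemosensory receptors were the most numerous clustered genes. The TAD with most starts was the same in both lists, chr7:102480001-104200000, with 109 starts, of which 95 were olfactory receptors, the odorant-binding receptors of the nose. A second olfactory receptor TAD at chr10:129000001-130360000 in 2D held 62 starts, 59 of them olfactory receptors, and ended 40 kb earlier in 3D, with 61. On chromosome 19, 2D had a TAD at 12000001-12440000 with 19 starts and another at 12520001-13960000 with 52, and a TAD of 3D at 12000001-13920000 held 73, of which 62 were olfactory receptors. It was the only gene-packed TAD of either list that joined 2 gene-packed TADs of the other. Over all autosomal protein-coding genes, 9.19% started in a gene-packed TAD in 2D and 12.1% in 3D. Of the genes in such TADs of 2D, 87.4% were in one in 3D too. Of 1128 autosomal olfactory receptor genes, 447 (39.6%) started in a gene-packed TAD in 2D and 484 (42.9%) in 3D, and 435 did in both. Of the 49 that did so in 3D alone, 39 lay in a 2D TAD over 2000 kb, which was that of chromosome 2. Vomeronasal receptors, which detect pheromones, went the other way, with 142 of 329 genes (43.2%) in 2D and 102 (31.0%) in 3D. All 102 were also in gene-packed TADs of 2D. Of the other 40, 23 lay in 3D TADs with fewer than 15 starts and 17 in a 3D TAD over 2000 kb. A 2D TAD at chr6:56920001-58600000, with 28 vomeronasal receptors among 35 starts, had 3D TADs of 20, 4 and 10 starts inside it, and a 2D TAD at chr7:11520001-12920000, with 17 among 26 starts, lay, to within 1 bin, inside a 3D TAD of 2920 kb with 43 starts. The vomeronasal receptor TAD with most starts, chr13:22040001-23320000 in 2D with 36 among 39, was 120 kb longer at its end in 3D and had 41 starts. The Mas-related receptors, found on sensory neurons, filled a TAD of 1600 kb at chr7:47160001-48760000 alone, with 15 of 15 starts in both lists.

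**Figure D5:**
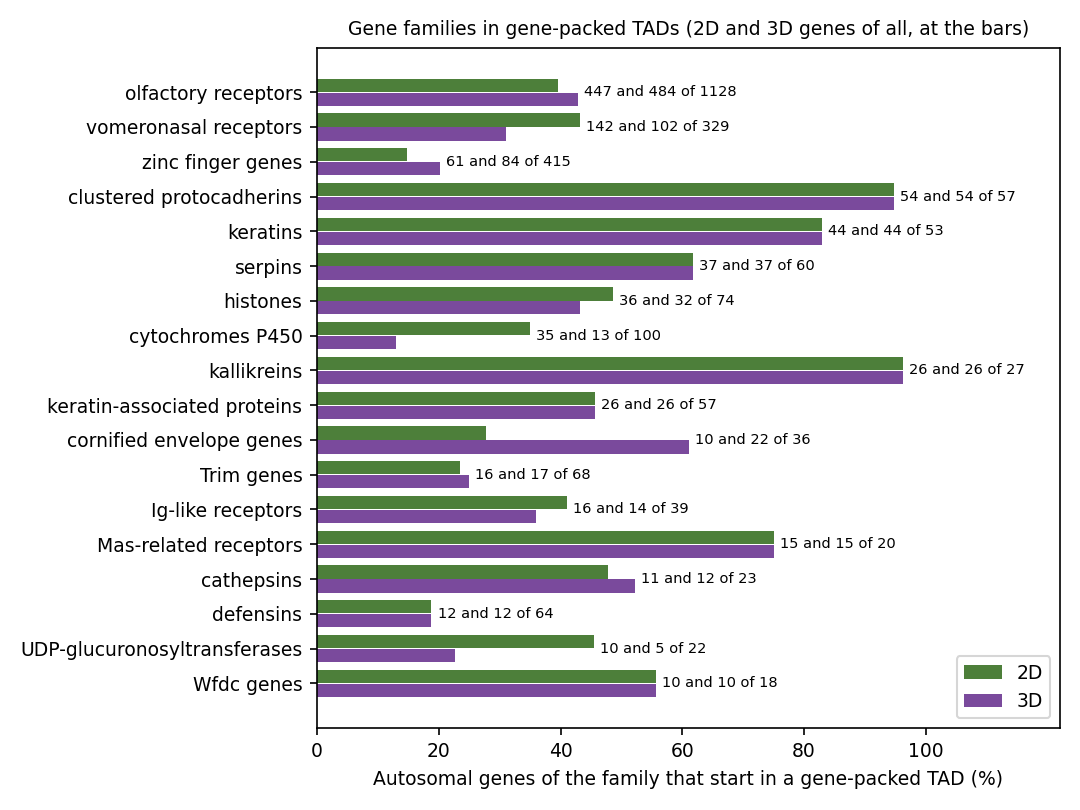
Share of each family's autosomal genes that start in a gene-packed TAD (x axis, %), for families with 10 or more such genes in either list; the numbers at the bars are the genes in 2D and in 3D of all autosomal genes of the family. Protocadherins, keratins, serpins and kallikreins are equal in both lists, while vomeronasal receptors and cytochromes P450 are higher in 2D and cornified envelope genes in 3D.

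Keratins, the proteins of epithelial intermediate filaments and hair, had 44 of 53 genes in gene-packed TADs in both lists. Among all autosomal protein-coding genes, 9.19% were in such a TAD in 2D and 12.1% in 3D. The type I keratins shared a mixed TAD with keratin-associated proteins, chr11:99240001-100320000 with 69 starts in 2D and chr11:99160001-100320000 with 70 in 3D, in which 27 starts were keratins. The type II keratins filled a TAD at chr15:101520001-102000000 with 17 of 19 starts in 2D, which ended 40 kb earlier in 3D. Keratin-associated proteins had 26 of 57 genes in gene-packed TADs of both lists. Cornified envelope genes, which build the outer layer of skin, had 10 of 36 genes in 2D and 22 in 3D. Those of 2D filled chr3:92360001-92640000, with 10 of 15 starts, which was identical in 3D. A second TAD of these genes, chr3:92760001-93080000 with 12 among 16 starts, passed the rule in 3D alone, close to the minimum of 15. It held all 12 of the family's genes that were in gene-packed TADs of 3D alone. In 2D a TAD of 9 starts covered part of it and 5 of the 12 genes lay in no TAD. Kallikreins, a family of secreted serine proteases, had 26 of 27 genes in both lists, in TADs with different borders. In 2D they lay in chr7:43600001-44360000, with 37 starts. In 3D a shorter TAD at chr7:43680001-44240000 held 27 starts, 26 of them kallikreins, with TADs of 6 and 6 starts on its sides. It was the gene-packed TAD of 3D with most starts that had no 2D border within 40 kb of either end, and in 2D the corresponding one was an olfactory receptor TAD at chr11:73200001-74400000 with 37 starts, inside a longer 3D TAD, chr11:73120001-74560000, with 43.

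Of the families of metabolic enzymes and plasma proteins on the list, serpins were equal, cytochromes P450 and UDP-glucuronosyltransferases had more genes in gene-packed TADs of 2D, and glutathione S-transferases, which detoxify by conjugation, had more in 3D, with 4 of 22 genes in 2D and 8 in 3D. Sulfotransferases had 3 and 4 of 21. Apolipoproteins had 1 of 27 in both, and carboxylesterases (19 genes) and major urinary proteins (22 genes) had none. Over all autosomal protein-coding genes the shares were 9.19% in 2D and 12.1% in 3D. The serpin TAD at chr12:103480001-104960000 in 2D held 27 starts, 23 of them serpins, including 6 genes of the Serpina1 group, which encode alpha-1 antitrypsin, a protease inhibitor of plasma, and it ended 40 kb earlier in 3D with the same 27. A second one at chr13:32800001-33960000 with 14 among 17 starts was identical. Cytochromes P450, the oxidizing enzymes of drug and steroid metabolism, had 35 of 100 genes in gene-packed TADs in 2D (35.0%) and 13 in 3D. In 3D their share was close to that of all genes. In both lists there were 12, where over all genes 87.4% of those of 2D were in such a TAD in 3D too. The 2D TAD filled with 14 Cyp2c genes among 15 starts, chr19:38960001-40280000, had a 3D TAD of 11 starts at 39400001-40280000 in its place, and 33.3% of its length was in no 3D TAD. The 2D TAD chr5:145280001-146560000, with 8 Cyp3a genes among 22 starts, lay over 3D TADs of 7, 5 and 1 starts with neither border shared. The Cyp2a and Cyp2b genes and Cyp2f2 at chr7:25840001-27160000 were in a gene-packed TAD of both lists, with 12 cytochromes among 17 starts in 2D and 11 among 16 in 3D. UDP-glucuronosyltransferases, which conjugate drugs and bilirubin, had 10 of 22 genes in 2D and 5 in 3D. Their 2D TAD, chr5:86840001-88560000 with 35 starts, was replaced in 3D by a TAD of 5 starts and a gene-packed one of 28 that also held the casein genes. The fibrinogen genes Fga, Fgb and Fgg lay in 1 long, sparse gene-packed TAD, chr3:81920001-83800000, with 15 starts and identical ends in both lists.

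Histone genes had 36 of 74 genes in gene-packed TADs in 2D and 32 in 3D, and 17 in both. Over all autosomal protein-coding genes the shares in such TADs were 9.19% and 12.1%. Of all genes in gene-packed TADs of 2D, 87.4% were in one in 3D too. In 2D the TAD chr13:23560001-23760000, the densest family-filled TAD with 10.0 starts per 100 kb, held 19 histone genes among 20 starts. In 3D the whole stretch lay in no TAD, so that all 19 histone genes in gene-packed TADs of 2D alone were outside TADs there. In 3D the TAD chr13:21720001-21840000, with 12.5 starts per 100 kb, consisted of 15 histone genes, of which 9 lay in no TAD in 2D and 6 in a TAD with 11 starts. Both stretches belong to the Hist1 cluster. The Hist2 genes at chr3:96040001-96280000, 10 among 16 starts, were in identical TADs. Zinc finger genes, most of which encode DNA-binding repressors, had 61 of 415 genes in 2D and 84 in 3D. They filled no gene-packed TAD in 2D and 2 in 3D. The first of these, chr13:66880001-67840000 with 23 among 35 starts, was 50.0% outside TADs in 2D, where TADs of 4, 5 and 9 starts lay in it. The clustered protocadherins, adhesion proteins that give neurons their surface identity, had 54 of 57 genes in a TAD with identical ends, chr18:36800001-37800000, with 59 starts. Wfdc genes, which encode secreted protease inhibitors, had 10 genes in chr2:164560001-164760000, among 15 starts in 2D and 18 in 3D, where the TAD ended 40 kb later. Genes listed as Ig-like receptors, here Ceacam and Psg genes, filled chr7:17360001-18720000 with 14 of 17 starts in both lists. Of immune families, Gimap genes (8 of 8), Ly6 genes (6 of 17) and defensins (12 of 64) had the same number in both lists. The genes listed as Ig-like receptors had 16 of 39 in 2D and 14 in 3D, and Trim genes 16 and 17 of 68. The 12 defensins, antimicrobial peptides, filled chr8:18960001-19360000 among 15 starts in both. Of the 44 families with autosomal genes, 15 had none in a gene-packed TAD of either list, among them the Hox genes, chemokines, carboxylesterases and major urinary proteins.

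Mixed TADs were of all sizes. In 2D, 24 of 45 measured 120 to 400 kb, 6 measured 440 to 1000 kb and 15 measured 1040 to 2000 kb. In 3D the numbers were 46, 16 and 14 of 76. The longest gene-packed TAD of 2D was mixed, chr2:148760001-150760000 with 28 starts, among them cystatin genes, which encode inhibitors of cysteine proteases, and 3D had TADs of 8 and 20 starts in its place. The next longest, chr6:3480001-5400000 with 16 starts over 1920 kb, holds the paraoxonase genes Pon1, Pon2 and Pon3 and was identical in 3D. A TAD at chr2:173080001-174960000, with 20 starts over 1880 kb, among them Pck1, an enzyme of glucose synthesis, and the imprinted gene Gnas, began 80 kb earlier in 3D, where it held 22. The short mixed TADs were the dense ones. The densest of 2D, chr17:25720001-25840000, held 15 starts in 120 kb, 12.5 per 100 kb, among them Stub1, a ubiquitin ligase, and Metrn, a secreted factor, and was identical in 3D. So was chr17:35000001-35160000 in the gene-dense part of the major histocompatibility region, with 19 starts, 6 of them Ly6 genes. The mixed TAD with most starts among those without any clustered family, chr11:69640001-70000000 with 35 starts, was identical as well. It holds Polr2a, the largest subunit of RNA polymerase II, the translation factors Eif4a1 and Eif5a, and the glucose transporter gene Slc2a4. The densest TAD of 3D, chr14:55560001-55680000 with 13.3 starts per 100 kb, holds the proteasome activator genes Psme1 and Psme2 and the interferon factor Irf9. In 2D 66.7% of it lay in no TAD, and a TAD of 11 starts began inside it. The 3D TAD chr10:80720001-81240000 with 29 starts, which include Eef2, a translation elongation factor, and Oaz1, an inhibitor of polyamine synthesis, stood over 2D TADs of 14 and 12 starts, both under the minimum, and its last bin lay in another with 26. The 3D TAD chr4:155800001-156280000 with 26 starts had 2D TADs of 14, 4 and 8 starts between the same borders. That at chr7:45440001-45720000 with 22 starts, among them Fgf21, a hormone made by liver, and Ftl1, a ferritin chain, had 2D TADs of 10 and 12. There were 3 gene-packed TADs of 3D that overlapped no 2D TAD, all of them mixed. They were chr19:5880001-6120000 with 19 starts, among them Capn1, a calcium-dependent protease, and Syvn1, a ubiquitin ligase of the endoplasmic reticulum, chr6:82920001-83160000 with 19, and chr19:8720001-8840000 with 15.

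The lists of genes for dispersed housekeeping functions entered gene-packed TADs in small numbers. Of 78 mitochondrial ribosome genes 3 (3.85%, interval 1.32 to 10.7%) were in gene-packed TADs of 2D and 9 (11.5%, 6.19 to 20.5%) in 3D. For the respiratory chain the numbers were 4 and 8 of 79, for the proteasome 0 and 4 of 49, for cytosolic ribosomal proteins 1 and 3 of 79, for RNA polymerase II 1 and 2 of 13, and for splicing factors 1 and 3 of 21. All autosomal genes outside the clustered families stood at 4.96% (4.65 to 5.29%) in 2D and 8.31% (7.91 to 8.72%) in 3D, so the intervals of the first list include the background in both cultures. Genes of the clustered families stood at 32.8% and 33.3%. The increase from 2D to 3D was thus carried by genes whose symbols matched no family on the list. Of these, 752 were in gene-packed TADs in both lists, 124 in 2D alone and 714 in 3D alone. Of those 714, 455 lay in a 2D TAD with fewer than 15 starts and 250 in no 2D TAD. Of 19 genes for proteins that hepatocytes secrete, 9 were in gene-packed TADs of either list, namely the 6 Serpina1 genes and the 3 fibrinogen genes. The epithelial keratin genes Krt8 and Krt18 were in none.

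The classes differed in further features. Pseudogenes per start, starts in border bins and gene length are tied to the gene starts that the rule counted. Their differences from other TADs describe the choice and carry no test. Family-filled TADs had a median GC content of 40.4% in 2D and 40.7% in 3D, and 46.5% of their bases in 2D were repeats. Mixed TADs had 47.1% and 48.7% GC and 28.9% and 28.4% repeats. TADs with fewer starts lay between the classes in GC content and had 28.9% and 29.0% repeats. CpG dinucleotides numbered 6.16 and 6.46 per kb in family-filled TADs, 10.8 and 14.6 in mixed TADs and 10.4 and 10.5 in the others. MboI sites, at which the chromatin was cut, were somewhat more frequent in family-filled TADs, with 114 and 112 per 40 kb, than in mixed TADs, with 101 and 100. Pseudogenes numbered 0.543 and 0.465 per protein-coding start in family-filled TADs, 0.222 and 0.159 in mixed TADs and 0.489 and 0.468 in the others. Per Mb, a scale that follows the gene density by which the TADs were chosen, they numbered 16.2 and 14.4, 6.42 and 5.59, and 4.26 and 4.30. Neighbouring genes pointed in the same direction in 68.3% and 69.6% of pairs in family-filled TADs, 58.6% and 56.5% in mixed TADs and 49.6% in the others of 2D. Gene starts gathered at the borders less in family-filled TADs than elsewhere. In 3D, 11.1% of their starts lay in the bins just inside the borders, which made up 8.59% of their length. In mixed TADs of 3D 23.8% of starts lay in 14.2% of the length, and in the others 42.2% in 20.6%. Genes were short in both classes, with medians of 6.97 kb in family-filled and 7.31 kb in mixed TADs of 2D, where genes in other TADs had a median of 22.5 kb.

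Unassigned stretches, which belong to no TAD, often lay beside gene-packed TADs in 2D. Of 156 sides of these TADs, 75 faced such a stretch, 48.1% (40.4 to 55.9%), against 34.9% (33.9 to 36.0%) of the sides of TADs with fewer starts. In 3D, 63 of 222 sides did, 28.4% (22.9 to 34.6%), against 27.0%. Gene-packed TADs abutted each other in 4 pairs in 2D and 8 pairs in 3D. A row of them on chromosome 2 had other borders in each list. In 2D 3 gene-packed TADs followed each other at 24960001-25360000, 25360001-25600000 and 25600001-25840000, with 28, 17 and 16 starts. In 3D the middle of the row was a TAD at 25240001-25600000 with 31 starts, with TADs of 11 and 7 starts before and after it.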

How the data were processed

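In situ Hi-C libraries of AML12 cells, 2 samples per culture, were processed by the authors, who aligned reads to mm10 with Bowtie 2 (version 2.2.9 per the labels), balanced contact maps in bins of 40 kb, brought both cultures to the same depth per chromosome, combined the replicates and called TADs with Armatus. The deposited values give, for every TAD, the base pair at which it starts and that at which it ends, in 1 list per culture. As deposited, with starts counted from 0, all positions were multiples of 40 kb (starts are printed counted from 1), and every list ended within the chromosome lengths of GRCm38.

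Protein-coding gene starts were counted per TAD. The members, the 45 gene families and the other lists were chosen with earlier results of these data known. By rule, named TADs were those with most starts, the longest and densest, the fullest of each family, and those with most starts but no counterpart or no shared border. Further ones (vomeronasal TADs on chromosomes 6 and 7, the second serpin TAD, the Hist2, Cyp3a, Ugt2 and fibrinogen TADs and several mixed TADs) were chosen after their values were seen. The alternatives were other minimums of starts, size limits, border distances and fill shares, chromosome X, gene midpoints and leaving out the families. Python 3.11.15, numpy 2.4.6, pandas 2.3.3, scipy 1.17.1 and matplotlib 3.10.9 were used. On 600 simulated TADs, 7 of 7 measures returned the known value. Depth per TAD is unknown, and intervals are 95% Wilson intervals for counting error only.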

Additional observations from a re-analysis of the deposited data

How the results depend on the processing

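Over 14 alternative settings, 62 of 98 values stayed within the interval of the reported value, or within 1.5 times it for counts, and 36 moved. The order of the cultures was kept in 46 of 49 comparisons, which are not independent of each other. The genes kept are the same genes in both lists, as reported 1671 of 1912 and 1671 of 2517. The order of their shares thus only restates which list holds more genes. Counterparts are nearly reciprocal, as reported 53 of 78 and 56 of 111, so their order largely follows the number of TADs in each list. With 10 or more starts there were 225 gene-packed TADs in 2D and 300 in 3D, family-filled shares of 24.4% and 18%, and a median size of 360 kb in both. With 20 or more there were 38 and 43, with 41.9% family-filled and a median of 960 kb in 3D, and 84.6% and 76.4% of genes kept. Counterpart shares at that minimum were 60.5% in 2D and 55.8% in 3D, closer to each other than the reported 67.9% and 50.5%. Up to 1000 kb, 46 TADs were left in 2D, with a median of 360 kb in both lists, and 82.6% and 49.3% of genes were kept. With no limit of size the 2D median was 1120 kb, and 91.8% and 75.1% of genes were kept. Without the clustered families there were 33 and 64 TADs, 85.5% and 44.6% of genes were kept, 34.4% of 3D TADs had a counterpart, and border shares were level at 90.6% and 90.2%, the other order than reported. Counterpart shares were 44.9% and 31.5% at identical positions, 78.2% and 66.7% within 80 kb and 94.9% and 86.5% by a reciprocal overlap of 50%. Border shares were 68.4% and 72.9% at identical positions and 94.1% and 95.3% within 80 kb. With trace amine-associated receptors and S100a genes added to the families, an alternative chosen after seeing the data, 44.9% and 33.3% were family-filled. A fill of 75% left 28.2% and 20.7% family-filled, and with gene midpoints 69.5% of 3D genes were kept. The cause of these shifts was not tested. No paired analysis was possible because each culture has 1 list made from both of its replicates, and so no replicate could be left out either. Depth and the position of borders to 1 bin limit every value.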
